A study of Mus musculus with 8 samples.

Results

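A set of 32 DNA repair genes was followed through bulk RNA-seq of mouse epidermis in which the circadian clock gene Bmal1 was either floxed, as a target of keratinocyte Cre, or wild type. The genes were chosen by name, with earlier results of these data known. Of them, 17 act in nucleotide excision repair, from Xpa to Rpa3, and 15 in homologous recombination and crosslink repair, from Brca1 to Fanci. Each of the 32 symbols matched 1 of the 34070 gene identifiers in the count table. All 32 had enough counts to be tested, among 19646 tested genes.

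Epidermal cell suspensions came from adult mice aged 18 to 25 weeks, killed at zeitgeber time ZT4, which is 4 h after lights on. The Bmal1cKO group (4 libraries) carried K14-Cre and floxed Bmal1 (Bmal1flox/flox), and the Bmal1WT group (4 libraries) carried K14-Cre with wild-type Bmal1 (Bmal1wt/wt). The keratin 14 promoter directs Cre to keratinocytes, so the immune and pigment cells of a suspension are not its target. The labels name neither the exons removed nor whether each library is a separate animal, so the p-values below measure the spread between libraries, which may be technical in part. In both groups, replicates 1 and 3 were female and replicates 2 and 4 male, as read from Xist and 4 Y-linked genes, since the labels give no sex. The main fit had genotype as its only term, so the spread it measured includes any difference between the sexes.

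Nucleotide excision repair removes the bulky lesions that ultraviolet light leaves in DNA, which makes it the main line of repair in sun-exposed epidermis. Lesions are found either by dedicated sensors anywhere in the genome or by RNA polymerase stalled on a transcribed strand; the helix is then opened, cut on both sides of the lesion and filled in. Homologous recombination mends double-strand breaks by copying a sister chromatid, and the Fanconi proteins hand crosslinked DNA over to it, so most of these genes are used in S and G2 phase of dividing cells.

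Levels are given in CPM, the reads of a gene scaled to a common library total, on library sizes scaled by TMM, a normalisation that evens out composition between libraries. A log2 fold change sets Bmal1cKO over Bmal1WT and carries its standard error (SE), from edgeR's two-sided quasi-likelihood test. Adjusted p-values are Benjamini-Hochberg over the 19646 genes, and the threshold for a call was 0.05. Each library held between 35685261 and 50396156 counts. The fewest reads behind any single value were 54 for a recombination gene and 261 for an excision gene.

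Bmal1 itself (Arntl) was counted at 32, 34.4, 37.6 and 30.7 CPM in Bmal1cKO replicates 1 to 4, against 46.1, 42, 49.1 and 48.7 CPM in Bmal1WT replicates 1 to 4. Every Bmal1cKO library lay below every Bmal1WT library, and the counts cover the whole gene, exons left in place included. The log2 fold change was -0.47 ± 0.08 (SE) with an edgeR adjusted p = 0.0611, and 0.0358 with the replicate number as a block. Over all genes, edgeR called 34, of which 17 were higher and 17 lower in Bmal1cKO.

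The promoters below are shown because they carry the short motifs that are counted over the gene sets in the next paragraph. They are RefSeq windows of 250 bases before to 50 after the annotated start (GRCm38.p6), written 5′ to 3′ on the gene's strand. Capitals mark an E2F-type motif (either TTCCCGC in full, TTCGCGC in full, TTGCCGC in full or TTGGCGC in full, on either strand) in Brca1, Brca2 and Blm, and a canonical E-box (CACGTG) in Ercc6 and Rpa1. E2F factors switch on genes at the start of S phase, and the E-box is the letter string that the CLOCK-BMAL1 dimer is known to bind. The windows shown are examples. E2F-type motifs also stood in excision genes, and not every recombination gene had one.
Brca1 chr11:101551906-101552205, minus strand: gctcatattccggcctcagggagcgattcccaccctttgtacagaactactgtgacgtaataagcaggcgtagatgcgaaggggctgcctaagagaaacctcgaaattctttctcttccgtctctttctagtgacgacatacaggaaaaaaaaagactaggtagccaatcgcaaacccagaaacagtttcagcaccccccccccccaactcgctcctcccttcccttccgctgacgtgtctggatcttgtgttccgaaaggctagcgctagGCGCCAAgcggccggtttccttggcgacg
Brca2 chr5:150522371-150522670, plus strand: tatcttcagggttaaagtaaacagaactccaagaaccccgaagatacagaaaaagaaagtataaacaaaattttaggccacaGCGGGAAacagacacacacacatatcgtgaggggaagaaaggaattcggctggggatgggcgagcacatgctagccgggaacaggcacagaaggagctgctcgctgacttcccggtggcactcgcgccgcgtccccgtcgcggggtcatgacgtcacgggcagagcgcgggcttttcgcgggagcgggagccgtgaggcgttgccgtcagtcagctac
Blm chr7:80534949-80535248, minus strand: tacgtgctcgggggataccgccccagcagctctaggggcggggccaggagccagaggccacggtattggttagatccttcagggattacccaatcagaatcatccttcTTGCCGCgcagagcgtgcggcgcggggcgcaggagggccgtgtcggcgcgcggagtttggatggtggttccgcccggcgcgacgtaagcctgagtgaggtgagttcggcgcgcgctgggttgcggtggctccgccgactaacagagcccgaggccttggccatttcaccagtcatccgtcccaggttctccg
Ercc6 chr14:32513271-32513570, plus strand: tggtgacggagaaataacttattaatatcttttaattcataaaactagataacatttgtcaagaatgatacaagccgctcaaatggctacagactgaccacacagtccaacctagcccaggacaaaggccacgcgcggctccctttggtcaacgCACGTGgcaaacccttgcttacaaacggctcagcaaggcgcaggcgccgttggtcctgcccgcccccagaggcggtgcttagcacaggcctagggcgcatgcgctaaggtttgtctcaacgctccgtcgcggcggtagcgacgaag
Rpa1 chr11:75348334-75348633, minus strand: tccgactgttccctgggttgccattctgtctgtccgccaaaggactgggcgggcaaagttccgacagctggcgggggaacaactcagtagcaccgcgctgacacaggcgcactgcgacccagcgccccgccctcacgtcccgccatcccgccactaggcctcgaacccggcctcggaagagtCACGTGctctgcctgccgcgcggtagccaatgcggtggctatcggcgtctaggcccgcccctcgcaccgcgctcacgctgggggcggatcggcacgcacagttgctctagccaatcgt

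Windows were matched for 14 of the 17 excision genes and for 12 of the 15 recombination genes, which have 15 windows between them. Xpc, Ddb2, Ercc3, Xrcc2, Exo1 and Fancd2 were not analysed for motifs. An E2F-type motif stood in 8 of the 15 recombination windows and in 6 of the 14 excision windows, against 9.57% of the 32851 windows in the table. Both windows of Rad51c held it, so that gene is counted more than once. No window of Rad51b, Rad54l, Palb2, Xrcc3 or Fanca held it. The excision genes with the motif were Ercc1, Ercc2, Ercc5, Uvssa, Rpa2 and Rpa3. The E-box stood in 0 of the 15 recombination windows and in 3 of the 14 excision windows (Ercc6, Ercc8 and Rpa1), against 7.15% of all windows. The windows of Rad51b overlap each other, as do those of Rad54l, so the windows of a gene are not independent. The 32851 windows were not matched to these genes for base composition or level. No E2F-type form contains the E-box. A match is a description of letters, not of a bound site, and its absence says only that these letters are not in the window.

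The excision repair genes had close to the same levels in both genotypes. None of the 17 was called by edgeR (0.173% of all tested genes were), by DESeq2 (1.28%), by limma voom (0.148%) or with the replicate block (0.774%). At an unadjusted p under 0.05 edgeR gave 1, Rpa1, against 8.30% of all genes. At that threshold the replicate block gave 3 (Ercc6, Rpa1 and Rpa2) against 11.5% of all genes, sex as a covariate gave 2 against 10.6%, the male libraries alone gave 2 against 11.6% and the female libraries alone gave 0 against 5.92%. The median log2 fold change of the 17 was -0.01, as was that of all tested genes, with 8 values positive and 9 negative. For none of the 17 did the 4 Bmal1cKO values lie wholly above or below the 4 Bmal1WT values, against 5.15% of all genes. Per kilobase of exon, their level had a median of 6.89 CPM in Bmal1cKO and 7.2 CPM in Bmal1WT.

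**Figure D1:**
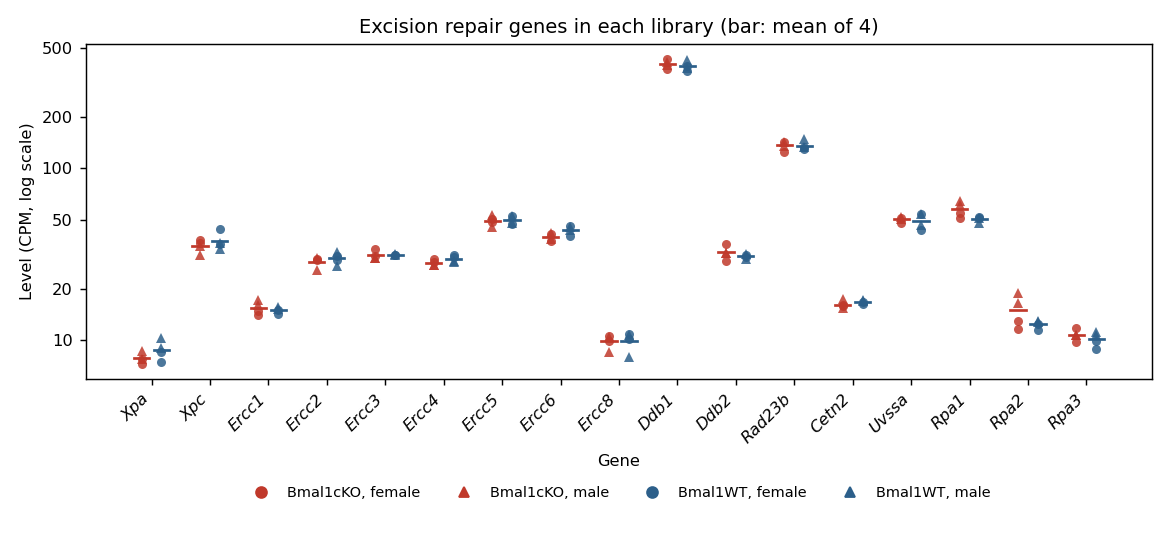
Level of the 17 excision repair genes in each library, in CPM on a log scale, with Bmal1cKO (red) left of Bmal1WT (blue), circles for female and triangles for male libraries, and a bar at the mean of 4. The groups overlap for every gene; the 2 male Bmal1cKO libraries stand highest for Rpa1 and Rpa2.

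Among the genes that find lesions across the genome, Xpc encodes the sensor that binds the distorted helix. It had 36.7, 31.3, 38.6 and 35.6 CPM in Bmal1cKO replicates 1 to 4, against 44.3, 36.7, 36.3 and 34.2 CPM in Bmal1WT replicates 1 to 4. The groups overlapped, with Bmal1WT replicate 1 the highest library (log2 fold change -0.09 ± 0.09, edgeR adjusted p = 0.879). Ddb2, which recognises ultraviolet photoproducts directly, had 29.0, 32.2, 36.4 and 32.4 CPM in Bmal1cKO replicates 1 to 4, against 31.4, 32, 30.7 and 29.7 CPM in Bmal1WT replicates 1 to 4. Its values overlapped as well (0.07 ± 0.07, edgeR adjusted p = 0.876). Its partner Ddb1, the adaptor of the CUL4 ubiquitin ligase, averaged 406 ± 22.5 CPM in Bmal1cKO and 394 ± 26.1 CPM in Bmal1WT (SD, n = 4 each), and per kilobase of exon it had the highest level of the 32 genes. Rad23b and Cetn2, which steady the XPC protein, had log2 fold changes of 0.00 and -0.06.

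Among the genes for repair of transcribed strands, Ercc6 (Cockayne syndrome B), the remodeller that senses a stalled polymerase, had a mean of 40.1 ± 1.97 CPM in Bmal1cKO and 43.9 ± 2.52 CPM in Bmal1WT (SD, n = 4 each). Its log2 fold change of -0.13 ± 0.06 had an edgeR adjusted p = 0.608, and 0.403 with the replicate block. Ercc8 (Cockayne syndrome A), a ubiquitin ligase subunit, and Uvssa, which brings in TFIIH, had log2 fold changes of -0.01 and 0.03.

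Xpa, the scaffold that checks the opened lesion, had the most negative value of the 32. It was counted at 7.78, 8.73, 7.32 and 7.82 CPM in Bmal1cKO replicates 1 to 4, against 8.57, 10.4, 7.45 and 8.98 CPM in Bmal1WT replicates 1 to 4. Bmal1WT replicate 3 lay among the Bmal1cKO values, so the groups overlapped (-0.16 ± 0.11, edgeR adjusted p = 0.778). The TFIIH helicase genes Ercc2 (XPD) and Ercc3 (XPB) had log2 fold changes of -0.06 and -0.02. Of the nuclease genes that cut out the lesion, Ercc5 (XPG) stood at -0.02, Ercc4 (XPF) at -0.07 and its partner Ercc1 at 0.05 on the same scale.

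The 3 subunits of replication protein A, which coats single-stranded DNA in excision repair, replication and recombination alike, held the 3 highest log2 fold changes of the 17. Rpa1, the large DNA-binding subunit, had 54.8, 61.0, 51.5 and 64.6 CPM in Bmal1cKO replicates 1 to 4, against 51.6, 48.4, 52.1 and 51.7 CPM in Bmal1WT replicates 1 to 4. Bmal1cKO replicate 3 fell within the Bmal1WT range, and the male replicates 2 and 4 were the highest. The log2 fold change was 0.19 ± 0.07 with an edgeR adjusted p = 0.537. Its unadjusted p was above 0.05 without Bmal1WT replicate 2, Bmal1cKO replicate 2 or Bmal1cKO replicate 4. Rpa2, the subunit phosphorylated in S phase and after damage, had the same high libraries, at 16.6 and 18.8 CPM in Bmal1cKO replicates 2 and 4 against at most 12.9 CPM in the other 6 libraries (0.28 ± 0.14, edgeR adjusted p = 0.651). Rpa3, the small subunit, stood at 0.09 ± 0.09. For the remaining 14 excision genes, the 95% intervals of the log2 fold change all lay between -0.41 and 0.25.

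The recombination and crosslink repair genes stood apart from this. All 15 had a positive log2 fold change, as did 47.0% of all tested genes, and 12 of the 15 were at least 1.25-fold higher in Bmal1cKO, as were 6.60% of all genes. None of the 15 was called by edgeR, against 0.0865% of all genes called higher. At an unadjusted p under 0.05, edgeR and DESeq2 each had 12 of the 15 higher and limma voom had 11, against 4.50% of all genes by edgeR, 4.78% by DESeq2 and 4.60% by limma voom. The 12 in edgeR were all but Rad51c, Xrcc2 and Xrcc3. Adjusted over all genes, DESeq2 called Brca1 and Rad54l (0.850% of all genes were called higher), the edgeR fit with the replicate block called the same 2 genes (0.519%), the fit with sex as a covariate called Brca1 (0.412%), and limma voom called none (0.0865%). In 6 of the 15, every Bmal1cKO library lay above every Bmal1WT library, against 2.64% of all genes. The median log2 fold change was 0.51, within a range of 0.06 to 0.98. The list was chosen with earlier results of these data known, so these shares describe it and do not test it. In such bulk samples, more cells that express a gene and more of its RNA per cell cannot be told apart.

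**Figure D2:**
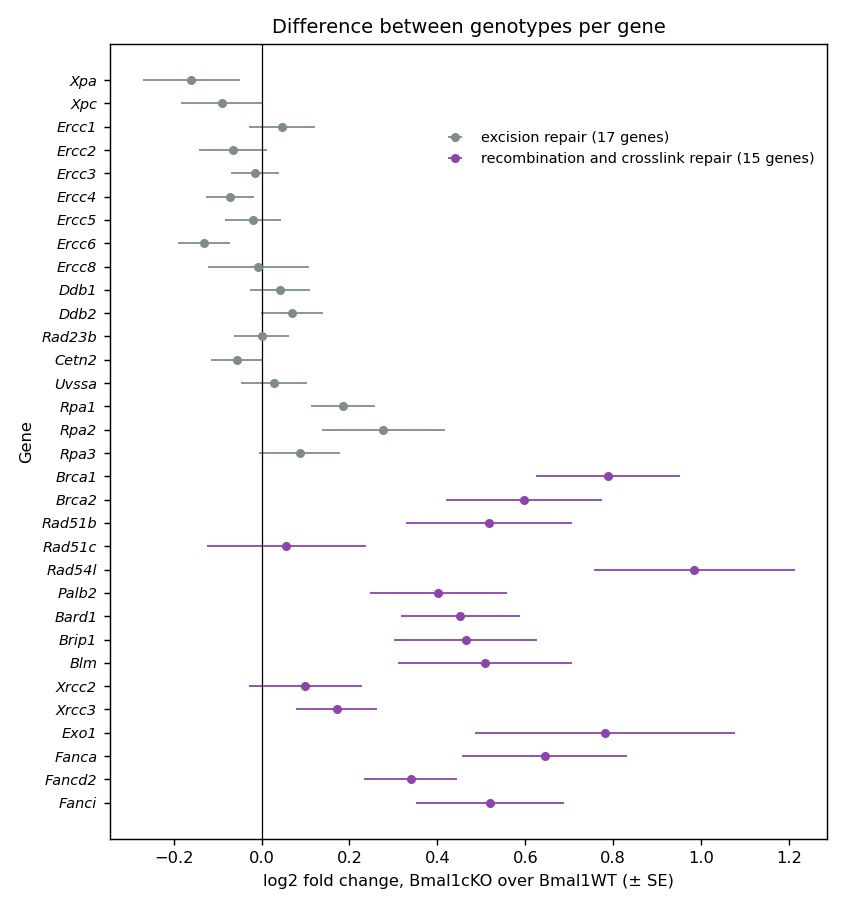
Log2 fold change of each of the 32 genes, Bmal1cKO over Bmal1WT, as points with ± 1 SE, for excision repair (grey) and recombination and crosslink repair (purple). Excision genes lie between -0.16 and 0.28, and recombination genes between 0.06 and 0.98.

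The recombination genes had lower levels than the excision genes: per kilobase of exon, their level had a median of 0.932 CPM in Bmal1cKO and 0.752 CPM in Bmal1WT. Summed over the 15 genes, the libraries held 90.6, 130.2, 94.6 and 135 CPM in Bmal1cKO replicates 1 to 4, against 73.8, 77.2, 84.2 and 80.9 CPM in Bmal1WT replicates 1 to 4. The 4 sums of Bmal1cKO were all above those of Bmal1WT, and replicates 2 and 4 stood highest.

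**Figure D3:**
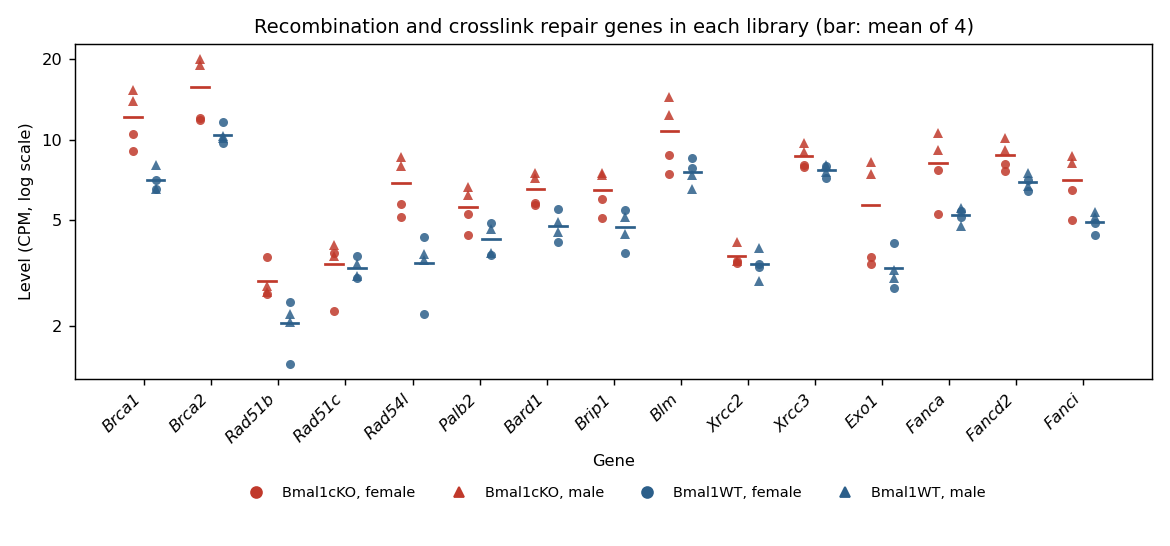
Level of the 15 recombination and crosslink repair genes in each library, in CPM on a log scale, with Bmal1cKO (red) left of Bmal1WT (blue), circles for female and triangles for male libraries, and a bar at the mean of 4. The highest library is a male Bmal1cKO library for 14 of the 15 genes.

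Brca1 (GRCm38 chromosome 11, 101488764 to 101551955, minus strand) encodes the ubiquitin ligase that favours recombination over end joining and helps start the resection of broken ends. It had 9.05, 13.9, 10.5 and 15.3 CPM in Bmal1cKO replicates 1 to 4, against 6.56, 6.51, 7.06 and 8.05 CPM in Bmal1WT replicates 1 to 4. The groups did not overlap, and the 2 male Bmal1cKO libraries were the highest. The log2 fold change was 0.79 ± 0.16 (1.73-fold), with an edgeR adjusted p = 0.143, which became 0.0373 with the replicate block, 0.0372 with sex as a covariate and 0.00136 with DESeq2.

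Bard1 encodes the obligate partner of BRCA1 in that ligase. It had 5.69, 7.47, 5.78 and 7.18 CPM in Bmal1cKO replicates 1 to 4, against 4.13, 4.92, 5.52 and 4.50 CPM in Bmal1WT replicates 1 to 4. The groups did not overlap, with a narrow gap between Bmal1WT replicate 3 and Bmal1cKO replicate 1 (0.45 ± 0.14, edgeR adjusted p = 0.372). Brip1, the helicase that binds BRCA1 and is also Fanconi protein J, had 5.07, 7.39, 6.01 and 7.48 CPM in Bmal1cKO replicates 1 to 4, against 3.75, 4.44, 5.46 and 5.12 CPM in Bmal1WT replicates 1 to 4. Here Bmal1cKO replicate 1 lay below the 2 highest Bmal1WT libraries (0.46 ± 0.16, edgeR adjusted p = 0.46).

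The genes for end resection and strand unwinding differed widely between the Bmal1cKO libraries. Exo1, the exonuclease that digests broken ends into long single strands, had 3.41, 7.42, 3.65 and 8.22 CPM in Bmal1cKO replicates 1 to 4, against 2.79, 3.03, 4.10 and 3.26 CPM in Bmal1WT replicates 1 to 4. The female Bmal1cKO libraries lay inside the Bmal1WT range, and the male ones were each over 7 CPM (0.78 ± 0.29, edgeR adjusted p = 0.511). Blm, the Bloom syndrome helicase that works with the resection nucleases and later dissolves joined chromatids, had 8.74, 12.4, 7.41 and 14.5 CPM in Bmal1cKO replicates 1 to 4, against 8.52, 7.39, 7.81 and 6.55 CPM in Bmal1WT replicates 1 to 4. Its male Bmal1cKO libraries were the highest too, while replicate 1 lay just above the Bmal1WT range and replicate 3 below 2 of the Bmal1WT libraries (0.51 ± 0.20, edgeR adjusted p = 0.526).

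Brca2 (chromosome 5, 150522630 to 150570329, plus strand) encodes a large mediator protein that readies single-stranded DNA for strand exchange. It had 12.1, 19.1, 11.8 and 20 CPM in Bmal1cKO replicates 1 to 4, against 9.70, 10.3, 11.6 and 10.1 CPM in Bmal1WT replicates 1 to 4. The groups did not overlap, with replicate 3 of each nearly level (0.60 ± 0.18, edgeR adjusted p = 0.372). Palb2, which joins BRCA2 to BRCA1, had 5.27, 6.18, 4.38 and 6.63 CPM in Bmal1cKO replicates 1 to 4, against 3.70, 3.77, 4.87 and 4.63 CPM in Bmal1WT replicates 1 to 4. The groups overlapped through Bmal1cKO replicate 3, which lay below 2 of the Bmal1WT libraries (0.40 ± 0.16, edgeR adjusted p = 0.528).

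Rad54l (chromosome 4, 116094264 to 116123690, minus strand) encodes a DNA motor that acts while a broken end searches for and invades the sister duplex, and it had the largest log2 fold change of the 32 genes. It had 5.15, 7.96, 5.73 and 8.62 CPM in Bmal1cKO replicates 1 to 4, against 2.22, 3.74, 4.34 and 3.53 CPM in Bmal1WT replicates 1 to 4. The groups did not overlap, and Bmal1WT replicate 1 was the lowest library. The log2 fold change was 0.98 ± 0.23 (1.98-fold), with an edgeR adjusted p = 0.202, which became 0.0432 with the replicate block and 0.00509 with DESeq2 but stayed at 0.0826 with sex as a covariate.

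Rad51b, Rad51c, Xrcc2 and Xrcc3, related genes whose products act together in strand exchange, did not follow one pattern. Rad51b had 2.64, 2.83, 3.65 and 2.69 CPM in Bmal1cKO replicates 1 to 4, against 1.45, 2.08, 2.46 and 2.23 CPM in Bmal1WT replicates 1 to 4. The groups did not overlap, and its highest library was the female Bmal1cKO replicate 3 (0.52 ± 0.19, edgeR adjusted p = 0.489). The means of the other 3 were closer together. Rad51c averaged 3.43 ± 0.786 CPM in Bmal1cKO and 3.30 ± 0.302 CPM in Bmal1WT, a log2 fold change of 0.06 with a 95% interval from -0.35 to 0.46. Xrcc2 stood at 0.10, with an interval from -0.19 to 0.39, and Xrcc3 at 0.17, with an interval from -0.04 to 0.38. These intervals leave room for a difference as large as that of Fancd2, so the 3 genes are not shown to be alike in both genotypes.

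The Fanconi genes were represented by the core complex and by the pair it ubiquitinates. Fanca, a core complex subunit, had 5.27, 10.6, 7.72 and 9.13 CPM in Bmal1cKO replicates 1 to 4, against 5.14, 4.77, 5.42 and 5.56 CPM in Bmal1WT replicates 1 to 4. Only Bmal1cKO replicate 1 lay within the Bmal1WT range (0.64 ± 0.19, edgeR adjusted p = 0.366). Fancd2, which is ubiquitinated at crosslinks, had 8.12, 10.1, 7.63 and 9.13 CPM in Bmal1cKO replicates 1 to 4, against 7.05, 7.49, 6.43 and 6.73 CPM in Bmal1WT replicates 1 to 4. Its groups did not overlap, though its log2 fold change was the smallest of the 12 genes with an unadjusted p under 0.05 (0.34 ± 0.11, edgeR adjusted p = 0.41). Fanci, its binding partner, had 6.46, 8.68, 5.02 and 8.17 CPM in Bmal1cKO replicates 1 to 4, against 4.39, 5.15, 4.87 and 5.34 CPM in Bmal1WT replicates 1 to 4. Bmal1cKO replicate 3 lay within the Bmal1WT range (0.52 ± 0.17, edgeR adjusted p = 0.424).

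The male libraries carried most of the difference. For 14 of the 15 recombination genes the highest of the 8 libraries was Bmal1cKO replicate 2 or 4, against 21.8% of all genes, and the exception was Rad51b. The difference was larger among male than among female libraries for the same 14 genes, against 49.9% of all genes. Its median over the 15 was 0.64 on the log2 scale among the male libraries and 0.23 among the female ones, while both medians of the excision genes were within 0.03 of 0. It was above 0 in both sexes for 13 of the 15, against 24.8% of all genes, and the exceptions were Blm (-0.02 in females) and Rad51c (-0.19 in females). When each library was left out in turn, 14 of the 15 kept a positive log2 fold change in every fit, against 27.9% of all genes, and the exception was Rad51c.

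**Figure D4:**
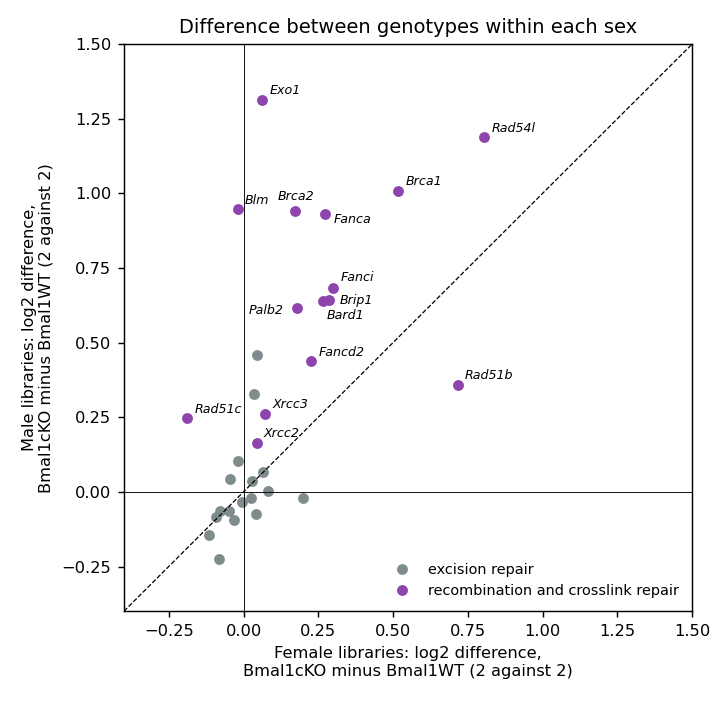
Log2 difference of each of the 32 genes, Bmal1cKO minus Bmal1WT, in the 2 against 2 female libraries (x axis) and in the 2 against 2 male libraries (y axis), with excision genes in grey, recombination genes in purple and a dashed line where the sexes are equal. All recombination genes but Rad51b lie above the line, with medians of 0.23 (female) and 0.64 (male).

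Among the 4 male libraries alone, edgeR called 5 of the 15, namely Blm, Brca1, Brca2, Exo1 and Rad54l, where it called 0.389% of all genes higher. Among the 4 female libraries alone it called none (0.0202% of all genes), and 1 gene, Brca1, had an unadjusted p under 0.05 (3.06% of all genes were higher at that threshold). The difference between the sexes was tested as an interaction, female minus male. It was called for none of the 32 genes by edgeR (0.00509% of all genes) or by DESeq2 (0.158%). At an unadjusted p under 0.05, edgeR gave 5 recombination genes (Blm, Brca1, Brca2, Exo1 and Fanca) and 2 excision genes (Rpa1 and Rpa2), all negative, against 4.11% of all genes in that direction, and DESeq2 gave 3 of the 32 (Blm, Brca2 and Exo1), against 2.81%. The largest in size was Exo1, at -1.28 ± 0.28 (SE, edgeR adjusted p = 0.552), followed by Blm at -0.96 ± 0.19 (adjusted p = 0.501) and Brca2 at -0.78 ± 0.15 (adjusted p = 0.472). With 2 libraries per sex and genotype, the male sex and whatever else replicates 2 and 4 of Bmal1cKO share cannot be told apart.

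Sex by itself, with genotype held in the fit, was called by edgeR for none of the 32 genes (1.84% of all genes were). At an unadjusted p under 0.05, Xpc was higher in female libraries (0.18 ± 0.07, edgeR adjusted p = 0.252), and Rpa2 (-0.32 ± 0.10, edgeR adjusted p = 0.149), Brca1 (-0.34 ± 0.12, edgeR adjusted p = 0.196) and Fanci (-0.37 ± 0.12, edgeR adjusted p = 0.171) were lower there. That is 4 of 32, against 17.9% of all genes.

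The other genes of these pathways were less uniform than the 15. Of 32 further excision and gap-filling genes, edgeR called none (0.173% of all tested genes were), and 5 had an unadjusted p under 0.05, against 8.30% of all genes: Lig1, Pole, Rfc3 and Rfc5 were higher and Lig3 lower in Bmal1cKO. Lig1, the ligase of replication and long repair patches, had 26.6, 37.2, 29.7 and 43.2 CPM in Bmal1cKO replicates 1 to 4, against 22.2, 21.9, 23.3 and 25.8 CPM in Bmal1WT replicates 1 to 4. Its log2 fold change was 0.55 ± 0.14 (edgeR adjusted p = 0.258), and that of Pole, the leading-strand polymerase, was 0.65 ± 0.18 (edgeR adjusted p = 0.305). DESeq2 called both. Rfc3, a subunit of the PCNA clamp loader, stood at 0.20 ± 0.08 (edgeR adjusted p = 0.515). Lig1, Pole, Rfc3 and Rfc5 all encode parts that excision repair shares with replication. So do others of the list, among them Pcna, Rfc1, Rfc2, Rfc4 and Pold1, whose unadjusted p by edgeR was not under 0.05. The median of the 32 was 0.03.

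Of 36 further recombination and Fanconi genes, edgeR again called none, and 4 had an unadjusted p under 0.05. All 4 were higher in Bmal1cKO, against 4.50% of all genes higher and 8.30% in either direction, the latter not far from the share of the list. Rad54b, a relative of Rad54l, had 8.25, 13.1, 9.51 and 13.2 CPM in Bmal1cKO replicates 1 to 4, against 5.52, 7.03, 7.18 and 6.86 CPM in Bmal1WT replicates 1 to 4, without overlap. Its log2 fold change was 0.73 ± 0.16, with an edgeR adjusted p = 0.183 that became 0.0405 with the replicate block. Rad54b shares 35.8% of its exon length with Fsbp on the same strand, and how reads of the shared part were counted is not given. Dna2, a resection nuclease, stood at 0.67 ± 0.17 (edgeR adjusted p = 0.253), and Rad51ap1, which promotes strand pairing, at 0.63 ± 0.20 (edgeR adjusted p = 0.405). The median of the 36 was 0.06, against 0.51 for the 15 recombination genes named above.

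Genes of DNA replication stood high in the same libraries. All 22 genes of an S phase list, among them the Mcm helicase genes and E2f1, had positive log2 fold changes, with a median of 0.51. Summed over the list, they held 427, 632, 442 and 739 CPM in Bmal1cKO replicates 1 to 4, against 389.8, 393, 426 and 428 CPM in Bmal1WT replicates 1 to 4, and the same male Bmal1cKO libraries were the highest. None was called by edgeR (0.173% of all tested genes were). At an unadjusted p under 0.05 there were 17, all higher in Bmal1cKO, against 4.50% of all genes higher and 8.30% in either direction. The smallest p-values belonged to Ccne2 (0.60 ± 0.13, edgeR adjusted p = 0.147), Clspn (0.82 ± 0.17, edgeR adjusted p = 0.15) and Mcm10 (0.84 ± 0.23, edgeR adjusted p = 0.3). DESeq2 called these 3 (0.850% of all genes were called higher). With sex as a covariate edgeR called Ccne2 and Clspn (0.412%), and with the replicate block it called Clspn (0.519%). In the male libraries alone edgeR called 7 of the 22, where it called 0.389% of all genes higher. For the interaction of sex and genotype DESeq2 called 5 (Mcm2, Mcm3, Mcm4, Mcm6 and Uhrf1), against 0.158% of all genes. Each had the smaller difference in females. For the interaction edgeR called none of the 22 (0.00509% of all genes were). Of 18 genes of G2 and mitosis, 10 were positive and 8 negative, with a median of 0.07. Their sums were 586, 784, 566 and 707 CPM in Bmal1cKO replicates 1 to 4 and 547, 663, 644 and 644 CPM in Bmal1WT replicates 1 to 4, so the groups overlapped. Of that list, 2 genes had an unadjusted p under 0.05, both higher in Bmal1cKO. Among all genes 4.50% were higher at that threshold and 8.30% differed in either direction, the latter close to the share of the list. They were Kif11 (0.27 ± 0.10, edgeR adjusted p = 0.528) and Aurkb (0.25 ± 0.10, edgeR adjusted p = 0.573), and Top2a came next (0.22 ± 0.10, edgeR adjusted p = 0.609). The part of the S phase genes' levels in the recombination genes' difference was not tested.

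**Figure D5:**
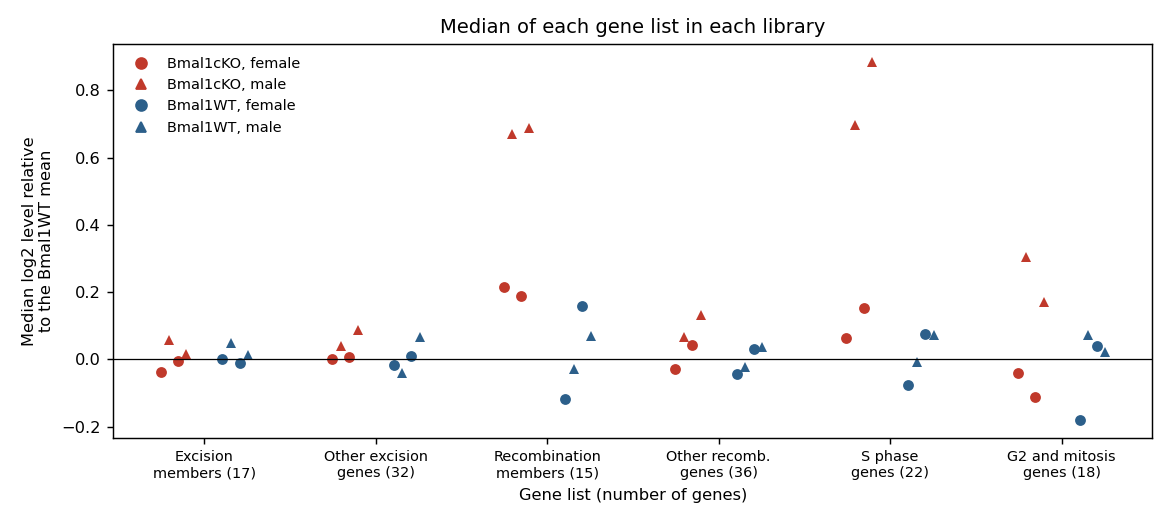
Median over each gene list of the log2 level relative to the Bmal1WT mean, 1 point per library, with Bmal1cKO (red) left of Bmal1WT (blue), circles for female and triangles for male libraries. The male Bmal1cKO libraries stand at 0.67 and 0.69 for the 15 recombination genes and at 0.70 and 0.88 for the 22 S phase genes, while the excision genes stay between -0.04 and 0.06 in every library.

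The E2F-type motif stood in 12 of 18 promoter windows of the S phase genes and in 3 of 16 of the G2 and mitosis genes. A further motif of late cell cycle genes, the cell cycle homology region (TTTGAA, either strand), stood in 12 of 16 windows of the G2 and mitosis genes, in 2 of 15 of the recombination genes and in 1 of 14 of the excision genes, against 17.9% of all windows. It shares no more than a few letters with the E2F-type forms, and the counts describe the windows without linking them to the levels.

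The suspensions held mainly keratinocytes by their markers. The 6 basal keratinocyte markers, led by Krt5, summed to between 19929 and 21658 CPM in Bmal1cKO and between 18585 and 20192 CPM in Bmal1WT. The 6 differentiation markers, led by Krt10, summed to between 9969 and 15431 CPM in Bmal1cKO and between 13248 and 21507 CPM in Bmal1WT. Although these sums overlap, all 6 differentiation markers had a negative log2 fold change, with a median of -0.43, and 4 of the 6 basal markers a positive one, with a median of 0.10. Relative to the Bmal1WT mean, the median log2 level of the differentiation markers was -0.21, -0.11, -0.89 and -0.23 in Bmal1cKO replicates 1 to 4. In Bmal1WT replicates 1 to 4 it was -0.17, 0.24, -0.01 and -0.10. The groups overlapped, and Bmal1cKO replicate 3 stood far below every other library. Of the other cells, 7 Langerhans and T cell markers summed to 269, 111, 388 and 217 CPM in Bmal1cKO replicates 1 to 4. In Bmal1WT replicates 1 to 4 they summed to 300.1, 78.9, 345 and 144 CPM. Every male library lay below every female library, with the lowest sum of each genotype in its replicate 2. The 10 markers of growing hair follicles, whose matrix divides fast, summed to between 11.7 and 23.8 CPM in Bmal1cKO and between 13 and 57.5 CPM in Bmal1WT. They were highest in Bmal1WT replicate 4, at 57.5 CPM. Of the Bmal1cKO libraries highest in recombination genes, replicate 4 held 23.8 CPM and replicate 2 held 11.7 CPM of them, the highest and the lowest sum of that genotype. The 5 melanocyte markers summed to between 3.27 and 23.2 CPM in Bmal1cKO and between 9.36 and 21.7 CPM in Bmal1WT, and the 6 dermal fibroblast markers to between 4.66 and 15.8 CPM in Bmal1cKO and between 3.47 and 43.6 CPM in Bmal1WT. By log2 fold change, 8 of the 9 tested follicle markers were negative (median -1.46), as were 5 of 5 tested fibroblast markers (-1.45), 4 of 4 tested melanocyte markers (-0.41) and 4 of 7 Langerhans and T cell markers (-0.23). Bmal1WT replicate 4 weighs heavily on the follicle and fibroblast medians. It held 43.6 CPM of the fibroblast markers, against 8.68, 10.2 and 3.47 CPM in Bmal1WT replicates 1 to 3. The follicle markers summed to 20.6, 14.7 and 13 CPM in those replicates. Apart from replicate 4, no Bmal1WT sum of either list was above the Bmal1cKO range. None of the markers was called by edgeR (0.173% of all tested genes were). The 4 endothelial markers stayed at or under 1.06 CPM in every library, with Emcn at 0 on average in Bmal1cKO. The part of these cells in the repair genes' differences was not tested.

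Some of the genes overlap others, and how the counting treated strand is not given in the sources used here, so reads of a gene and its antisense partner may not be told apart. In the GENCODE M21 annotation, 13 of the 32 share exon bases with another gene, 12 of them with a gene on the opposite strand. For Rad54l this is 15.4% of its exon length, shared with Lrrc41, which had a log2 fold change of -0.01 and a mean of 40.0 CPM in Bmal1cKO and 40.2 CPM in Bmal1WT. Fanci shares 16% with Polg, whose log2 fold change was 0.04, and Fanca shares 10.5% with Zfp276, at -0.01. Among the excision genes the overlaps were larger. Ercc2 shares 24.6% with Gm26852, at -0.10, and 17.8% with Klc3, at 0.04. Ddb2 shares 23.8% with Acp2, at -0.03. Brca1, Brip1, Bard1, Blm and Exo1 share no exon bases with an annotated gene.

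Of the 32 genes, 5 lie on chromosome 7, as does Bmal1. Palb2 starts 8.9 Mb above the start of Bmal1, Blm and Fanci start 32.8 and 33.8 Mb below it, and Ercc1 and Ercc2 lie over 93 Mb away. The recombination genes among them had log2 fold changes of 0.40, 0.51 and 0.52, inside the range of those on other chromosomes. Whether sequence linked to the floxed Bmal1 allele bears on these 3 was not tested.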

How the data were processed

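Polyadenylated RNA of 8 epidermal suspensions was made into stranded TruSeq libraries and sequenced as single reads of 51 bases, per the labels' protocols. The authors deposited raw counts of reads per Ensembl gene, without normalisation. The tools named in the submitters' processing notes are featureCounts, STAR 2.7.10a and Trim Galore, on GRCm38 (mm10). Which annotation release and strand setting they used is not given. Symbols and coordinates came from GENCODE M21, which names 33974 of the 34070 identifiers.

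The tests used R 4.3.3 with edgeR 4.0.16: filterByExpr (minimum count 10, minimum total 15), TMM scaling, and the quasi-likelihood F-test with genotype as the only term over 4 Bmal1cKO and 4 Bmal1WT libraries. Sex, and its interaction with genotype, were tested in further edgeR fits. DESeq2 1.42.0, limma voom (limma 3.58.1), other scalings, no filter, sex as a covariate, the replicate block, each sex alone and each library left out were alternatives. The steps were tested on simulated data. Differences within a sex are differences of mean log2 CPM, with CPM floored at 0.05.

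The 32 genes and all lists were chosen with earlier results of these data known. Values per library were given for genes with an unadjusted p under 0.05 or without overlap of the groups and for Xpa, Xpc, Ddb2, Brca1 and Brca2, and the other members were given by log2 fold change. Of the further pathway and cell cycle lists, called genes or else the 3 with the smallest p were given, and any others named with a value or a call (Lig3, Rfc5 and 5 S phase genes) were named after their values were seen. The values of 1 further gene are not reported here. Libraries with the same replicate number deviated together from their group means (correlations across genes of 0.33, 0.48, 0.39 and 0.37, each over a minimum of 0.1). Pairing by replicate number entered only the alternative fit with the replicate block, and the main fit left it out. Libraries of the same sex but another number gave 0.15, 0.17, 0.35 and 0.16, so this minimum does not set pairing by number apart from shared sex. No 2 libraries of a group agreed within sampling noise. Promoter windows came from RefSeq.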

Additional observations from a re-analysis of the deposited data

Results flagged for a closer look

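In Bmal1WT, Rpa1 was at 48.4 CPM in replicate 2 and between 51.6 and 52.1 CPM in the other 3 libraries, a gap wide enough against the range of the group to be marked by Dixon's test for 4 samples. In Bmal1cKO, Xrcc2 was at 4.15 CPM in replicate 4 and between 3.45 and 3.52 CPM in the other 3 libraries, and it was marked in the same way. Chance marks about 1 group in 20, and 64 groups of 4 were examined.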

How the results depend on the processing

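The number of genes called over the whole table moved with the method: 34 by edgeR, 252 by DESeq2, 71 without the filter on low counts, 152 with the replicate block, 119 with sex as a covariate, 101 in the male and 13 in the female libraries alone, and 23 to 32 with 1 library left out. For sex the count was 361, with 994 by DESeq2, 2233 without the filter and 55 (without Bmal1WT replicate 1) to 606 (without Bmal1cKO replicate 1) with a library left out. For the interaction it was 1, with 31 by DESeq2, 557 without the filter and 0 to 2 with a library left out.

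Calls among the 15 recombination genes numbered 0 by edgeR, 2 by DESeq2, 2 with the replicate block, 1 with sex as a covariate, 5 in the male libraries alone and 0 in each fit that left out a library. Their count at an unadjusted p under 0.05 was 12, with 1 in the female libraries alone and 8 to 12 with a library left out. Their median log2 fold change of 0.51 became 0.23 in the female libraries alone and 0.39 to 0.57 with a library left out, and 14 of the 15 kept a positive value in each fit that left out a library, as did 27.9% of all genes. No excision gene was called under any alternative. Their count at an unadjusted p under 0.05 was 1, with 2 without the filter, 3 with the replicate block, 2 with sex as a covariate, 2 in the male and 0 in the female libraries alone, and 0 to 2 with a library left out, being 0 without Bmal1WT replicate 2, Bmal1cKO replicate 2 or Bmal1cKO replicate 4. Their median ran from -0.014 to 0.028 with a library left out. Calls among the further excision genes were 2 by DESeq2 and 1 in the male libraries, and among the further recombination genes 2 by DESeq2, 1 with the replicate block, 2 with sex as a covariate and 2 in the male libraries. The replicate block changed no other call among the repair genes.

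In the female libraries alone the sign turned for Ercc1 (-0.016), Ercc3 (0.046), Rad51c (-0.15) and Blm (-0.011), and in the male libraries alone for Ercc8 (0.040), Rad23b (-0.018) and Rpa3 (-0.015). With a library left out, values on both sides of 0 were seen for Ercc1 (-0.0077 to 0.094), Ercc3 (-0.059 to 0.010), Ercc5 (-0.055 to 0.028), Ercc8 (-0.093 to 0.062), Rad23b (-0.023 to 0.053), Uvssa (-0.027 to 0.077) and Rad51c (-0.020 without Bmal1cKO replicate 4, up to 0.21). None of these values was called, and the cause was not tested. The 2 libraries per sex and genotype, and counts as low as 54 for a recombination gene, limit what the interaction can show.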
